A study of Pseudotsuga menziesii with 26 samples.

Results

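Whole diesel exhaust, called DE, was compared with filtered air, called Air Control, in the needles of young Douglas-fir trees (Pseudotsuga menziesii). It used 13 of the 26 libraries of the series, 7 from DE seedlings (replicates 1, 2, 4, 5, 6, 8 and 12) and 6 from Air Control seedlings (replicates 3, 5, 8, 11, 14 and 15), and all transcripts of the deposited count table. The groups came from the source labels and the replicate numbers from the sample titles. The DE seedlings received the emissions of diesel fuel without an additive, unfiltered, and the Air Control seedlings received air cleaned by charcoal, Purafil and HEPA filters. All were half-siblings, grown in 4 chambers of 984 L, 1 for each atmosphere of the series, with 16 h of light a day at 280 µmol per second and square metre. Exposure ran for 6 h daily, 5 days per week, over 2 weeks in the dormant season, with filtered air between exposures. Poly(A) RNA came from needles grown in the year before sampling. Because all DE seedlings shared 1 chamber and all Air Control seedlings another, the exhaust and its chamber cannot be told apart, and p-values measure the spread between seedlings.

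Diesel exhaust is a mixture of soot particles, nitrogen oxides, carbon monoxide and hydrocarbons, and conifer needles meet it at their wax surface and through their stomata, the pores of gas exchange. Evergreen needles stay on the tree for several years, and their messenger RNA normally holds a few very abundant transcripts above a long list of scarce ones. A count table records each transcript as a part of its library, so that a library filled by a few transcripts leaves few counts for all others. The files do not pair the transcript identifiers with gene names, so no gene function, pathway or cell type marker could be assigned, and the needle origin could not be checked against marker genes.

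The libraries of the compared groups differed in depth and makeup before any single transcript was considered. In DE, 6 of 7 libraries held under 10000000 counts, called shallow here, and none of the 6 Air Control libraries did. Total counts ran from 2467403 over a median of 8115296 to 28990156 in DE, and from 24924192 to 43560508 in Air Control. DE replicate 5, the deepest DE library, lay inside the Air Control range, and the other 6 lay below it. The geometric mean total of DE, set over that of Air Control, gave a ratio of 0.210. Depth was known when the comparison was chosen, so this is a description and no test of it is given.

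Fewer transcripts were counted in DE needles also when every library was thinned at random to the same 2467403 counts. At that equal depth, 4402 to 35012 transcripts had at least 1 count in DE, with a median of 7102, and 22341 to 35018 in Air Control, with a median of 34082. The mean was 11843 ± 10925 in DE and 31344 ± 5021 in Air Control (SD, n = 7 and 6). This difference passed (two-sided exact permutation test over all 1716 splits, p = 0.00641, adjusted p = 0.0114 over 6 measures of the libraries). The 6 measures include total counts, which were known to differ beforehand, and detection at full depth, which depends on them. Including both can lower the adjusted p of the other measures. At full depth, 6049 to 57063 transcripts were counted in DE and 40920 to 57735 in Air Control. Detection at full depth depends on the known total counts, so this is a description and no test of it is given. At equal depth the 6 shallow DE libraries all lay below the lowest Air Control library, the highest of them being replicate 12 at 16023. DE replicate 5, at 35012, lay among the highest Air Control libraries. Outside the 23 transcripts that took over 1% of the counts of any library of the series, called dominant here, and thinned to 151321 counts, 5149 to 18296 were counted in DE and 15059 to 18556 in Air Control.

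**Figure D1:**
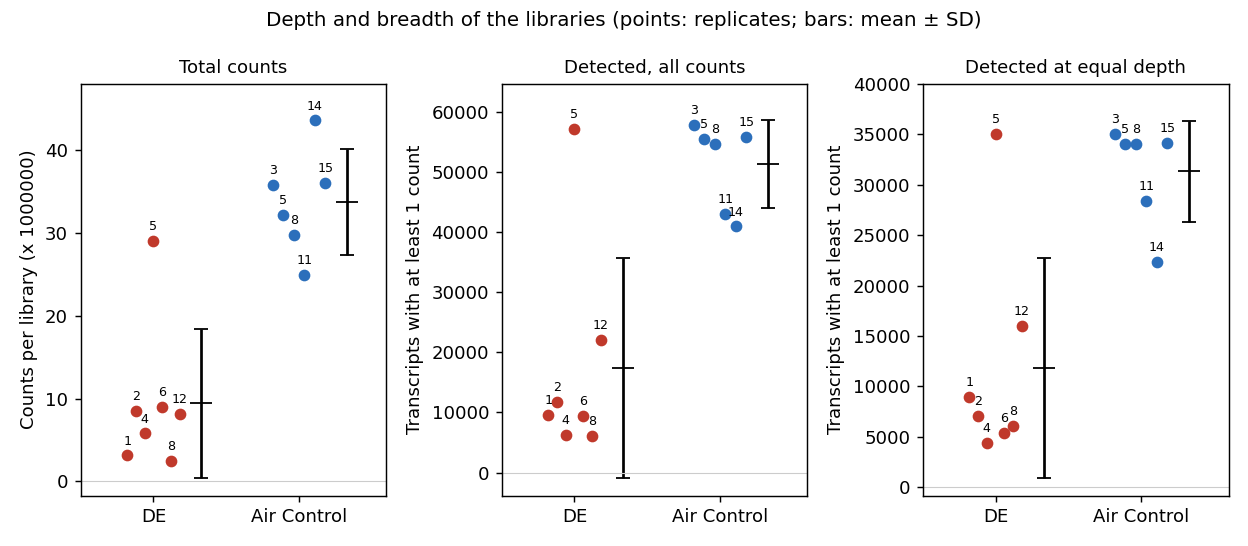
Total counts (left, axis in units of 1000000), transcripts with at least 1 count (middle) and the same after thinning every library to 2467403 counts (right), for DE and Air Control, with replicate numbers at the points and mean ± SD beside them (n = 7 and 6). DE replicate 5 stands with the Air Control libraries in all panels, and DE replicate 12, at 16023 transcripts at equal depth, is the broadest of the others.

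A handful of transcripts filled the shallow DE libraries. The 10 most abundant transcripts of each library held 35.8% to 95.4% of its counts in DE, with a median of 93.1%, and 28.6% to 79.5% in Air Control, with a median of 39.1%. The mean share was 85.1% ± 21.8 in DE and 44.7% ± 18.01 in Air Control (SD, n = 7 and 6; two-sided exact permutation test, p = 0.00758, adjusted p = 0.0114). Among the shallow DE libraries the range was 89.3% to 95.4%, above every Air Control library. The number of transcripts that together held 50% of the counts was 1 or 2 in the shallow DE libraries and 75 in DE replicate 5. In Air Control it was 2 in replicate 14, 14 in replicate 11 and 42 to 79 in the other 4. The test of that number passed narrowly (two-sided exact permutation test, p = 0.0315, adjusted p = 0.0378) and did not pass when most single libraries were left out (exact p up to 0.0671).

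Much of that abundance belonged to transcripts that were also abundant in air. The most abundant transcript over the 13 libraries, psme_t002753 (4295 nt, chosen after seeing its values), took 20.0% to 61.7% of the counts in DE with a median of 37.2%, and 5.75% to 21.5% in Air Control with a median of 11.5%. The lowest DE value was that of replicate 5, which lay inside the Air Control range, and the other 6 DE libraries lay above it. The single highest count of the comparison was that of psme_t000146 (8738 nt), 14075716 counts or 32.3% in Air Control replicate 14. It took 3.20% to 15.9% of the counts in DE and 2.82% to 5.26% in the other 5 Air Control libraries. The 3 most abundant transcripts together held 27.6% to 79.8% of the counts in DE and 14.5% to 65.7% in Air Control. Of the 8 transcripts that were among the 10 most abundant in every shallow DE library, 5 were among the 10 most abundant of some Air Control library, and 3 were among those of DE replicate 5. Of the 6 that were among the 10 most abundant in every Air Control library, all 6 were so in DE replicate 5 and 3 in every shallow DE library.

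**Figure D2:**
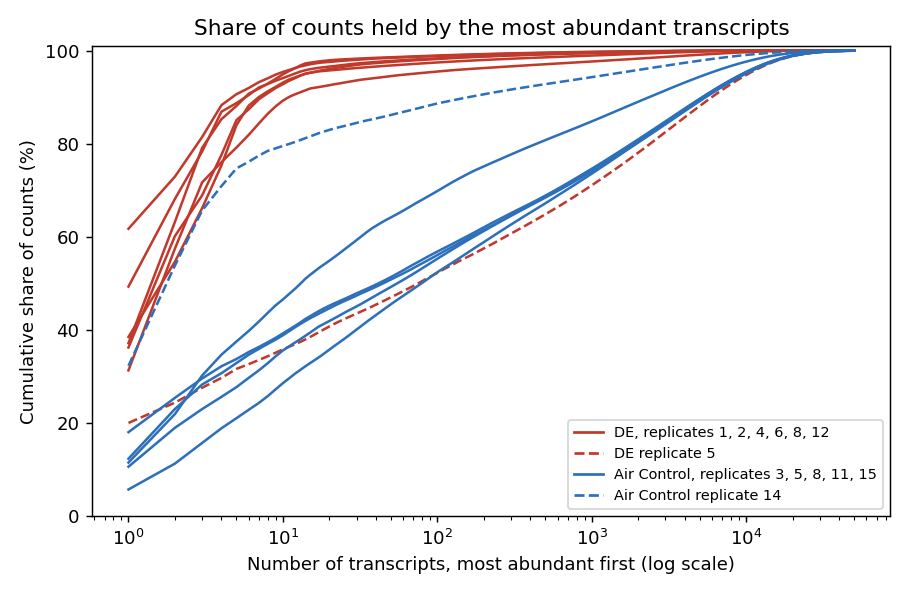
Cumulative share of counts (%) against the number of transcripts, most abundant first (log scale), 1 line per library, DE in red and Air Control in blue, with DE replicate 5 and Air Control replicate 14 dashed. The 6 shallow DE libraries reach 89.3% to 95.4% at 10 transcripts, Air Control replicate 14 reaches 79.5%, and DE replicate 5 reaches 35.8%.

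A difference in transcript length was not shown over all counts. The mean transcript length weighted by counts was 3925 ± 368 nt in DE and 3248 ± 1047 nt in Air Control (SD, n = 7 and 6; two-sided exact permutation test, p = 0.135, adjusted p = 0.135). Air Control replicate 14, where the 8738 nt transcript led, was the highest at 5313 nt, and without it the test passed with DE 1090 nt higher (exact permutation test, p = 0.00126). Outside the dominant transcripts DE was the shorter group, at 1825 ± 494 nt against 2550 ± 573 nt in Air Control (SD, n = 7 and 6; two-sided exact permutation test, unadjusted p = 0.0245).

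Profiles outside the dominant transcripts parted the DE libraries in the same way. At 151321 counts each, the Spearman correlation across 13932 transcripts had a median of 0.639 between DE replicate 5 and the Air Control libraries, and of 0.670 among Air Control libraries. Between the shallow DE libraries and Air Control the median was 0.169, and among shallow DE libraries 0.463. DE replicate 12 lay between, at 0.480 to 0.518 with Air Control, against 0.086 to 0.296 for the other 5 shallow DE libraries. These correlations are across transcripts, which are not replicates, and scarce transcripts with few counts lower all of them. Of the 2461 transcripts counted in all 6 shallow DE libraries, 152 had 0 counts in all 6 Air Control libraries, which pooled 202228083 counts, and all 152 also had 0 counts in DE replicate 5. Absence from air was not particular to the shallow libraries. DE replicate 5, the deepest, had counts for 4674 transcripts at 0 in all Air Control libraries, or 0.0385% of its counts. The shallow DE libraries had 400 to 786 such transcripts each, or 0.0318% to 0.1% of their counts.

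Transcript by transcript, 26942 had enough counts to be tested, and 2263 of them differed, or 8.40%. In DE, 1149 were higher (4.26%) and 1114 lower (4.13%; edgeR quasi-likelihood test over all 26 libraries, Benjamini-Hochberg adjusted p under 0.05). On data simulated from a mean profile common to all libraries, the share of false calls of this test was above the nominal one. The simulated libraries lacked the uneven makeup of the shallow DE libraries, so that share is not the error rate of these calls. Levels are given as TMM-scaled CPM, counts per 1000000 after a scaling (the trimmed mean of M values) that leaves extreme transcripts aside, and they are not shares of the library. The TMM factors, by which library totals are multiplied, were 0.0614 to 0.351 in the shallow DE libraries. They were 4.36 in DE replicate 5 and 0.754 to 4.01 in Air Control. The split between the directions depended on this scaling. With DESeq2's size factors 1383 were higher and 468 lower, and with library sizes alone 649 were higher and 876 lower. Over the whole table the median log2 fold change was -0.51 with TMM, -0.17 with those factors and -2.004 without any, and changes are to be read relative to it. In bulk needles, fewer cells of a type and less RNA per cell cannot be told apart.

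**Figure D3:**
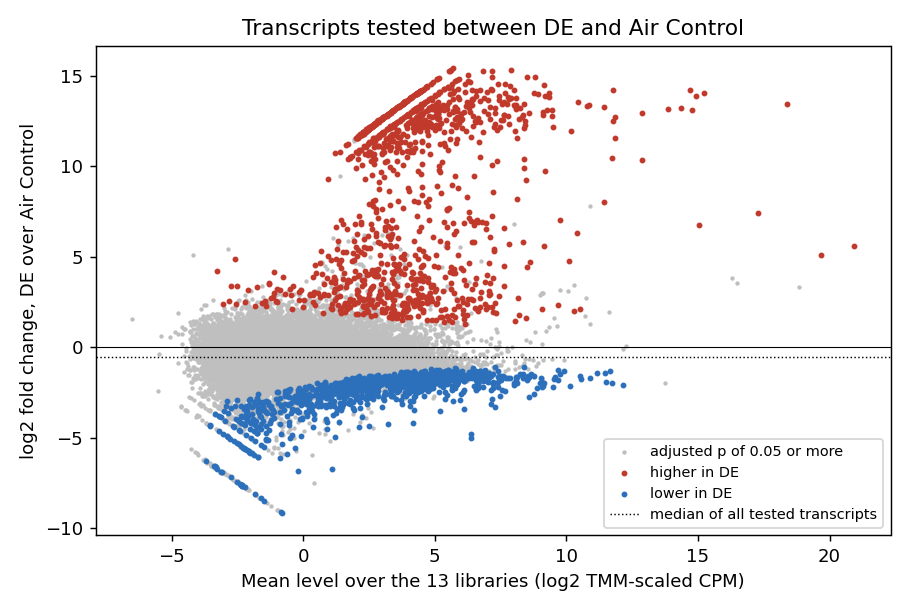
The log2 fold change of DE over Air Control against the mean level over the 13 libraries (log2 TMM-scaled CPM) for the 26942 tested transcripts, with those at an adjusted p under 0.05 in red (1149 higher in DE) or blue (1114 lower in DE). Higher transcripts reach a log2 fold change of 15.4, a fitted value, while the lower ones lie around a median of -2.09.

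The transcripts called higher and those called lower in DE were unlike in size, length and distribution over the libraries. The higher ones had a median length of 793 nt and the lower ones of 1554 nt, beside 2001 nt over all tested transcripts. The fitted log2 fold changes had a median of 10.88 for the higher and -2.09 for the lower ones. Of the higher ones, 183 had 0 counts in all 6 Air Control libraries, out of 186 such transcripts tested. These could pass the filter on low counts only through the other groups, and their fitted changes depend on the prior count. With their Air Control level set to the floor of 3 counts per library, the median of the higher ones was 8.44, and without them it was 7.68. Without the 21 lower ones that had 0 counts in all 7 DE libraries, the median of the lower ones was -2.08. The higher ones took 74.0% to 89.6% of the counts in the shallow DE libraries, 26.7% in DE replicate 5 and 13.6% to 33.9% in Air Control. The lower ones took 0.117% to 1.95% in the shallow DE libraries, 16.0% in DE replicate 5 and 11.2% to 35.3% in Air Control. Since the calls chose these transcripts, the shares describe them and are no further test. Of the 1149 higher ones, 889 were counted in all 6 shallow DE libraries and 583 had 0 counts in DE replicate 5, with 466 meeting both. Of the 1114 lower ones, 314 were counted in all 7 DE libraries and 202 had 0 counts in all 6 shallow ones, which at 18.1% is near the 19.6% of all tested transcripts.

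Depth limited what could be seen as lower. A level of 3 counts, the floor used here for a count of 0, was 3.91 to 7.19 CPM in 5 of the shallow DE libraries, 1.055 CPM in the sixth, replicate 12, and only 0.0239 CPM in the deep DE replicate 5. In Air Control it was 0.0211 to 0.0915 CPM. Only 3678 of the 26942 tested transcripts (13.7%) had a mean Air Control level above the floor of every DE library. Among those 3678, 707 were called lower (19.2%) and 95 higher (2.58%). The 3678 were chosen by their Air Control level, which also enters the comparison. That choice leaves out transcripts scarce in air and can favour lower calls, so these shares are descriptions and do not compare the directions. For the rest of the 1114 lower calls, at least 1 DE library could not have shown the mean Air Control level.

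Groups that did not overlap were mostly lower ones. All 7 DE libraries lay above all 6 Air Control libraries for 44 tested transcripts (0.163%), and all 7 lay below for 2072 (7.69%), together 2116 (7.85%). With DESeq2's size factors the numbers were 79 above and 1300 below, and with library sizes alone 9 above and 1011 below. Of the 2072, 1085 had 0 counts in all 6 shallow DE libraries, and 340 had their lowest Air Control level above the floor of every DE library. Of the transcripts called by edgeR, 42 of the 1149 higher ones and 654 of the 1114 lower ones showed no overlap. With the added condition on depth, 40 higher and 260 lower transcripts were left. The 40 had log2 fold changes of 1.81 to 10.44 with a median of 3.24, and the 260 had changes of -1.09 to -3.22 with a median of -1.83, beside a median of -0.51 over all tested transcripts. With any 1 library left out, 39 of the 40 and 160 of the 260 were still called, and under all 3 scalings 3 and 44 were.

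The 2 largest changes in each direction among these transcripts are given with their levels. Transcript psme_t147405 (373 nt) was at 5.46 to 16670 CPM in DE with a median of 2791, and at 3.94 to 5.08 CPM in Air Control with a median of 4.47. The 6 shallow DE libraries held 1197 CPM or more, while DE replicate 5, at 5.46 CPM from 685 counts, was only just above the highest Air Control library. Its log2 fold change was 10.44 ± 2.27 (SE, n = 7 and 6, edgeR adjusted p = 0.0112). With library sizes alone as the scaling, psme_t147405 had a log2 fold change of 5.385. In the libraries of the DECe group, whose seedlings received exhaust of fuel with cerium dioxide nanoparticles in another chamber, it was at 410.0 to 1814 CPM in the 3 shallow and 6.58 to 19.6 CPM in the 4 deeper libraries. Transcript psme_t171726 (333 nt) was scarce, at 0.104 to 62.5 CPM in DE with a median of 22.9 and at 0 to 0.0351 CPM in Air Control. These levels came from 4 to 43 counts in each DE library and 14 counts over the 6 Air Control libraries together, and it passed the filter on low counts through the libraries in which it was high. Its fitted change depends on the prior count, so neither that change nor its p is given. In DECe it was at 0.941 to 26.6 CPM in the 3 shallow and 0 to 0.145 CPM in the 4 deeper libraries. For both transcripts the high libraries were the shallow ones, in DE as in DECe. A covariate was fitted for the counts outside the dominant transcripts, which were fewer in every shallow DE library than in any Air Control library. With it, the log2 fold change of psme_t147405 was 2.90 (edgeR adjusted p = 0.259). In the libraries of at least 10000000 counts alone, where DE has 1, it was 0.27 (edgeR adjusted p = 0.921).

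On the lower side, psme_t017609 (2145 nt) was at 0 to 6.68 CPM in DE with a median of 2.40, and at 13.5 to 73.2 CPM in Air Control with a median of 24.9. DE replicate 5 was at 4.795 CPM from 602 counts and the shallow DE libraries had 0 to 19 counts, against 1283 to 3631 counts in the Air Control libraries. The log2 fold change was -3.22 ± 0.547 (SE, n = 7 and 6, edgeR adjusted p = 0.00256). In DECe its levels in the 3 shallow libraries, 6.43 to 10.95 CPM, overlapped those in the 4 deeper ones, 6.61 to 14.9 CPM. Transcript psme_t047227 (1003 nt) was at 0 to 7.04 CPM in DE with a median of 1.81, and at 9.81 to 67.6 CPM in Air Control with a median of 19.9. DE replicate 5 was at 1.13 CPM from 142 counts. The log2 fold change was -3.14 ± 0.663 (SE, n = 7 and 6, edgeR adjusted p = 0.00568). Its DECe levels were 4.39 to 27.1 CPM in the shallow and 3.03 to 27.1 CPM in the deeper libraries. By the rule that chose these 2 transcripts, every DE library, deep or shallow, was below every Air Control library. Their shallow and deeper DECe libraries overlapped. With library sizes alone as the scaling, their log2 fold changes were -4.54 and -5.59. With the covariate their log2 fold changes were -2.89 and -3.13 (edgeR adjusted p = 0.0387 and 0.162), and in the deeper libraries alone -2.73 and -4.50 (edgeR adjusted p = 0.267 and 0.351).

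**Figure D4:**
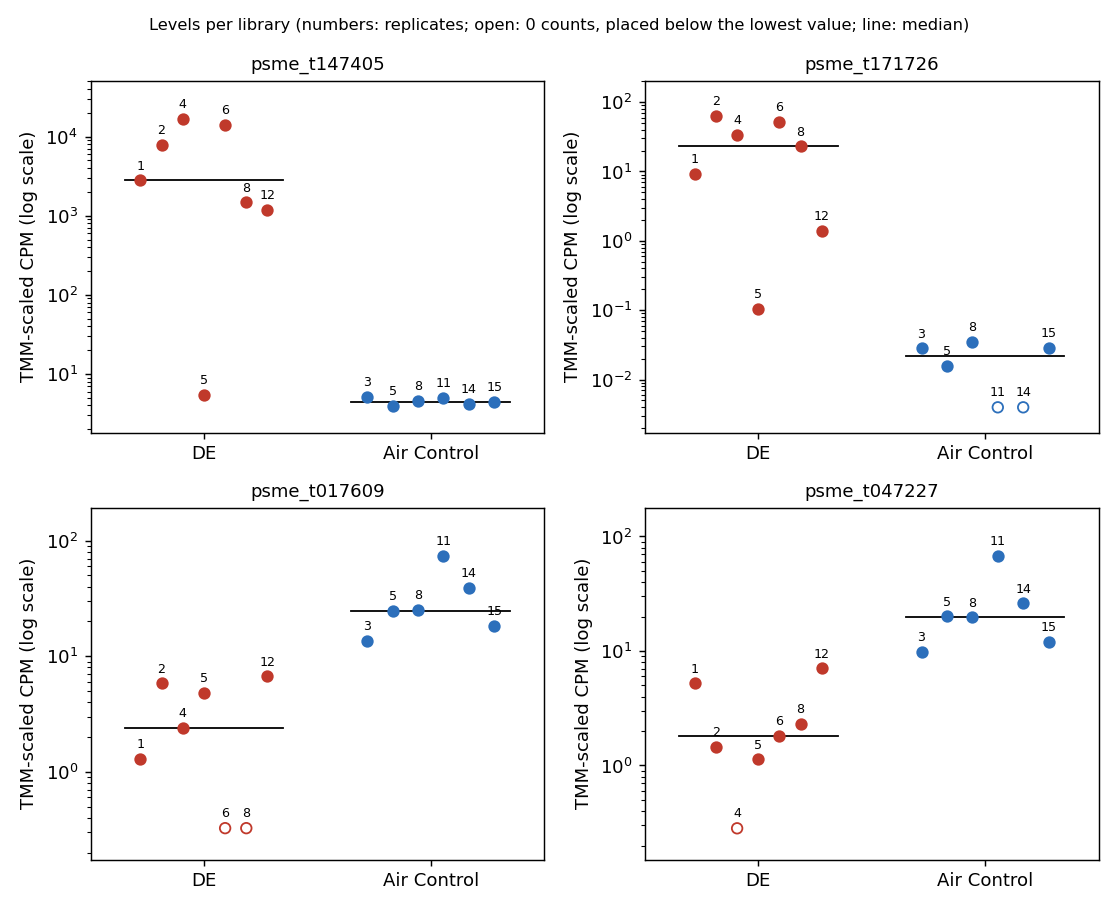
TMM-scaled CPM (log scale) of 4 transcripts in each DE (left, n = 7) and Air Control (right, n = 6) library, with replicate numbers, medians as lines and open points for libraries with 0 counts. In the upper panels DE replicate 5, at 5.46 and 0.104 CPM, lies far below the shallow DE libraries, and in the lower panels, at 4.795 and 1.13 CPM, it lies among them.

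The place of each library was then read for transcripts called in a fit that left it out. The Air Control libraries enter both the calls and the range used for the place, so these shares are descriptions. Without DE replicate 5, 1232 transcripts were higher (4.87%) and 1895 lower (7.49%) of 25291. DE replicate 5 lay above the Air Control range for 13.6% of these higher transcripts and for 23.3% of all tested ones. It lay below the range for 52.5% of the lower transcripts and for 23.2% of all tested ones. Each shallow DE library, left out in turn, lay above the range for 73.4% to 95.1% of the higher transcripts and below it for 53.6% to 95.3% of the lower ones, replicate 12 being lowest in both. Each Air Control library, left out in turn, lay above the other 5 for 5.35% to 34.8% of the higher transcripts and below them for 7.94% to 48.1% of the lower ones. DE replicate 5 was thus placed like an Air Control library for the higher transcripts, and just above the highest Air Control library for the lower ones. With library sizes alone as the scaling, DE replicate 5 lay below the range for 9.55% of the lower transcripts, against 4.50% of all tested.

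**Figure D5:**
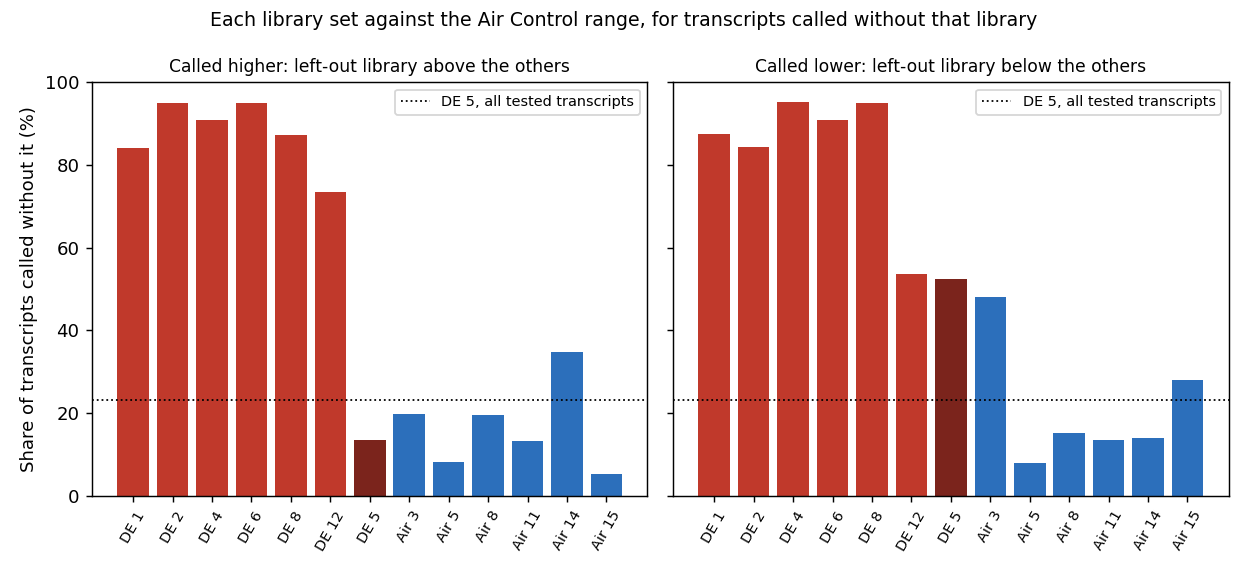
Share (%) of the transcripts called in a fit without a library for which that library lay above (left panel, called higher) or below (right panel, called lower) the Air Control libraries, with DE in red, DE replicate 5 in dark red and Air Control, set against its other 5 libraries, in blue. The dotted line is DE replicate 5 over all tested transcripts (23.3% and 23.2%), and its bars reach 13.6% and 52.5%.

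Depth also varied within the DECe chamber, where neither DE nor Air Control libraries enter. Of the 1149 transcripts called higher in DE, 1036 (90.2%) had a higher mean level in the 3 shallow than in the 4 deeper DECe libraries, beside 3493 of the 26942 tested ones. The median difference on the log2 CPM scale was 4.93 for them and -1.94 for all tested transcripts. Of the 1114 called lower in DE, 979 (87.9%) were lower in the shallow DECe libraries, which is near the 87.0% of all tested transcripts, with a median difference of -0.729. Of the 40 higher transcripts without overlap, 37 were higher in the shallow DECe libraries, with a median difference of 1.26. Of the 260 lower ones, 234 were lower there, with a median difference of -0.504. The lower ones were more abundant than the tested transcripts as a whole, with 63.5% of them against 13.7% of all having a mean Air Control level above the floor of every DE library. Among the 3678 tested ones above that floor, 83.2% were lower in the shallow DECe libraries, with a median difference of -0.604. For the 707 of these called lower in DE it was 86.8% and -0.490, and of the 95 called higher 93 were higher in the shallow DECe libraries. The part of depth in the calls was not tested by these values.

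Fewer calls were left in fits that took depth into account. No Air Control library was shallow, so the shallow libraries give no comparison. Among libraries of at least 10000000 counts, where DE has replicate 5 alone and its spread is assumed to be that of the other groups, 27 of 45063 transcripts differed, 25 higher and 2 lower in DE (edgeR, adjusted p under 0.05). With 1 DE library, calls in this fit have little power. Of the 1114 lower transcripts, 1110 had a log2 fold change below 0 there and 4 above, with a median of -1.79. Of the 1149 higher ones, 846 were in this fit, 285 above 0 and 529 below, with a median of -0.668. Over all transcripts of the main test the median there was -0.0914. DE replicate 5 and the Air Control libraries also entered the main calls, so these values are descriptions. With a covariate for the counts that lay outside the dominant transcripts, 31 differed, 12 higher and 19 lower. Those counts had a median of 395388 in DE and 19005080 in Air Control. Every shallow DE library lay below every Air Control library in them. The covariate thus largely follows the groups, and this fit can separate the 2 only weakly. After thinning the 13 libraries to 2467403 counts, 8755 transcripts could be tested and 991 differed, 490 higher and 501 lower. Without thinning, a fit of the same 13 libraries called 2036 of 22764. The filter kept fewer transcripts after thinning, so the 2 shares are not of the same transcripts. Of the 490 and 501, 385 and 385 were also among the 1149 and 1114. Thinning equalised the depth but not the share held by the most abundant transcripts.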

How the data were processed

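Needle poly(A) RNA libraries were made with PrepX kits, per the labels' protocols. CASAVA 1.8.2 is named by the submitters' processing notes. Aligner, counting tool, reference transcriptome and strand setting are not stated, so reads shared by near-identical transcripts cannot be assigned. The deposited raw counts cover 173882 transcripts, 80100 of them at 0 in all 26 libraries. The deposited RPKM values served only to derive transcript lengths, from counts and library totals, at RPKM of at least 0.1.

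Transcripts were tested with edgeR 4.0.16 (R 4.3.3), using filterByExpr by group (minimum count 10), TMM, 1 model of 4 groups over 26 libraries, trended dispersion, robust quasi-likelihood F tests (legacy=TRUE) and Benjamini-Hochberg adjustment. The SE is the log2 fold change divided by the signed root of F. Library measures were compared by exact permutation tests. Alternatives were other scalings, filters and settings, DESeq2 1.42.0, limma-voom (limma 3.58.1), a replicate block, thinning, a covariate, depth classes and leaving out each library. Named transcripts were the 2 largest changes in each direction among calls without overlap between groups and with enough depth (3 counts in every library of the lower group lie under the lowest level of the higher group), plus the transcript with the highest count. The comparison, lists and tests were chosen with earlier results of these data known. The fits were tested on data simulated with a common mean profile and a common spread, without the uneven makeup of the shallow libraries. There the share of false calls was above the nominal one in edgeR and DESeq2, and far above it in limma-voom. No 2 libraries of a group agreed within sampling noise (chi-square per degree of freedom at least 50.1). The precision of each level follows from total counts of 2467403 to 43560508. Floors of 3 counts cover counting error only.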

Additional observations from a re-analysis of the deposited data

Results flagged for a closer look

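Of 26 sets of values (library measures, shares and named transcripts, by group), 9 had a highest or lowest library far from the rest by Dixon's gap test, which chance gives in about 5% of sets. The sets share the same libraries and are not independent of each other. DE replicate 5 stood apart from the other 6 DE libraries in total counts (28990156), detected transcripts (57063), detected transcripts at equal depth (35012), the share of its 10 most abundant transcripts (35.8%) and the number of transcripts holding 50% of its counts (75). Its depth was known when the comparison was chosen, so its flags for total counts and for detection at full depth are descriptions. Air Control replicate 14 stood apart from the other 5 Air Control libraries in the share of its 10 most abundant transcripts (79.5%), its count-weighted transcript length (5313 nt) and the share of psme_t000146 (32.3%). Air Control replicate 11 stood apart in psme_t047227, at 67.6 CPM.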

How the results depend on the processing

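The number of changed transcripts (2263 as reported, 1149 higher and 1114 lower) ran from 1510 to 3127 with 1 library left out. It was 1127 with a mean of at least 50 counts, 991 after thinning, 218 with the replicate number as a block, 31 with the covariate and 27 in libraries of at least 10000000 counts, and 11782 by limma-voom. Only 8755 transcripts could be tested after thinning and 15365 with a mean of at least 50 counts, against 26942 as reported. The covariate itself was lower in every shallow DE library than in any Air Control library. The split also moved to 2322 higher and 782 lower without a filter, 1102 and 628 with legacy=FALSE, 1723 and 676 by DESeq2, and 1232 and 1895 without DE replicate 5. The block was fitted over all 26 libraries. DE and Air Control share numbers 5 and 8, and other numbers join them through the other groups. The labels do not say that a number marks a pair. For numbers 5 and 8, deviations of the DE and Air Control libraries from their group means had correlations of 0.039 and 0.025, and the other shared numbers were not checked. Transcripts psme_t147405, psme_t017609 and psme_t047227 kept their direction in every fit and stayed called in every fit with 1 library left out, but none was called in the block fit or in the deeper libraries alone, and only psme_t017609 was called with the covariate. Transcripts without overlap numbered 1379 with DESeq2's size factors and 1020 with library sizes alone, against 2116 with TMM. DE replicate 5 lay beyond the Air Control range on the side of the call for 1163 transcripts with TMM and 434 with library sizes alone. These scalings of levels were chosen after the data were seen.

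The difference in count-weighted length, 677 nt higher in DE, lay at -724.8 nt without the dominant transcripts and at -258.5 nt when weighted by RPKM, and at 532.6 to 1090 nt with 1 library left out. The log2 difference in the number of transcripts holding 50% of the counts was -3.80 to -2.69 with 1 library left out, and 11 of those 13 tests did not pass. Detected transcripts at equal depth and the share of the 10 most abundant kept their direction and call in all their alternatives. Detected transcripts at full depth kept their direction. The causes were not tested. Depth limits levels under 7.19 CPM in the shallow DE libraries.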
